A study of Sus scrofa with 20 samples.

Results

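The comparison described here set pBTSCs, the biliary tree stem cell preparations of newborn piglets, against liver cells of the pig (Sus scrofa) labelled as sorted by CD31 or CD146. Its members were chosen by the cell type label of each library, which gave 9 of the 20 libraries of the series. Of these, 5 were labelled pBTSCs (S2, S7, S11, S15 and S20), 2 liver CD31+ (S16 and S21) and 2 liver CD146+ (S17 and S22), and the last 4, called the liver sorts below, were pooled by these labels. The other 11 libraries were liver cells labelled CD45+, CD45-/EpCAM+ or CD45-/EpCAM-. The pBTSCs came from the gallbladder by the labels, and from the gallbladder and extrahepatic biliary tree of neonatal piglets by the study's methods, where cells chosen by surface antigens formed organoids together with early mesenchymal cells. By the study's supplementary information S2, S7 and S11 came from piglets of an H2B-GFP line, which carries an IRES-pH2B-eGFP cassette in the beta-actin locus ACTB and so marks nuclei wherever ACTB is active, and S15 and S20 came from wild-type piglets. The donor, line and age of each liver library were not given in the sources used here. All pBTSC libraries came from one tissue and all CD31+ and CD146+ libraries of another, so that tissue and cell type cannot be told apart in any difference between them.

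CD31 is the adhesion molecule of endothelial junctions and is made from PECAM1. CD146, made from MCAM, is found on endothelia and on the pericytes and smooth muscle around vessels. The blood spaces of the liver are lined by sinusoidal endothelial cells, a thin and fenestrated endothelium that takes up waste from the blood through scavenger receptors such as stabilins and the mannose receptor and that sends Wnt signals to hepatocytes. In the space behind it lie the stellate cells, which store vitamin A. The gallbladder wall has ordinary continuous vessels, with venules that admit leukocytes, beneath a mucus-secreting epithelium, and it holds smooth muscle, collagen-rich connective tissue and intrinsic neurons with their glia.

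Gene expression was given as normalized counts for 25764 genes. The depth, estimated from the value that 1 read takes in each library, was 29100000 to 77800000 reads in 4 pBTSC libraries and 31300000 to 41400000 in 3 liver libraries. It was only 1570000 in pBTSC library S15 and 455000 in CD146+ library S22, where 1 read was worth 12.6 and 52.2 normalized counts and 3 reads, taken as the least that can be told from 0, were worth 37.7 and 156. In the 7 deep libraries 3 reads were worth at most 2.28 normalized counts. These limits cover counting error only. Values are given below in the order S2, S7, S11, S15 and S20 for pBTSCs, S16 and S21 for CD31+ cells and S17 and S22 for CD146+ cells. Tests were made with limma on log2(normalized count + 1). They covered the 15576 genes with 10 or more normalized counts in 2 or more libraries, with all 6 labelled groups in one fit, and a gene was called a differentially expressed gene (DEG) at an adjusted p-value under 0.05 and a log2 fold change beyond 1 in either direction. The added 1 shrinks the fold changes of low genes. Nothing in the labels says whether the liver libraries came from separate animals, and the p-values then measure the spread between libraries, which may in part be technical.

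The library numbers are storage numbers of the labels, and what else they mark was not given. The libraries labelled CD31+ and CD146+ were closer to liver libraries of other labels with neighbouring numbers than to the second library of their own label. Across the 15576 genes, CD31+ library S16 and CD146+ library S17 correlated with each other and with CD45+ library S18 and CD45-/EpCAM+ library S19 at Pearson's r between 0.994 and 0.995, and the median gene differed by 0.0807 to 0.104 on the log2 scale between any pair of them. CD31+ library S21 stood at r = 0.994 to CD45+ library S23. Between S16 to S19 on one side and S21 or S23 on the other r was 0.980 to 0.985, and the median gene differed by 0.160 to 0.211. Squared differences within S16 to S19 were 2.69 to 3.81 times those that counting of reads gives, a spread that repeat libraries of 1 sample can also have, so that it does not show whether S16 and S17 are separate samples. They were kept as separate libraries by their labels, and averaging S16 with S17 and S21 with S22 gave 1674 genes higher and 1265 lower in pBTSCs, against 1963 and 1363 with each counted alone. The 20 pairs of a pBTSC with a CD31+ or CD146+ library had a median r of 0.819, from 0.736 to 0.877. Genes, over which each r was taken, are not independent replicates.

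The CD31+ and CD146+ libraries were not set apart by the antigens in their labels. Between them and the CD45+ or CD45-/EpCAM+ libraries S18, S19 and S23 the log2 difference was -0.03 for PECAM1 and 0.07 for MCAM, and neither was called (limma, adjusted p = 0.996 for each). Hepatocyte genes made up 10.7% to 14% of their totals. Whether they hold mainly endothelial cells, as CD31 and CD146 would mark, therefore cannot be settled from these values, and each result below is about the libraries as labelled.

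**Figure D1:**
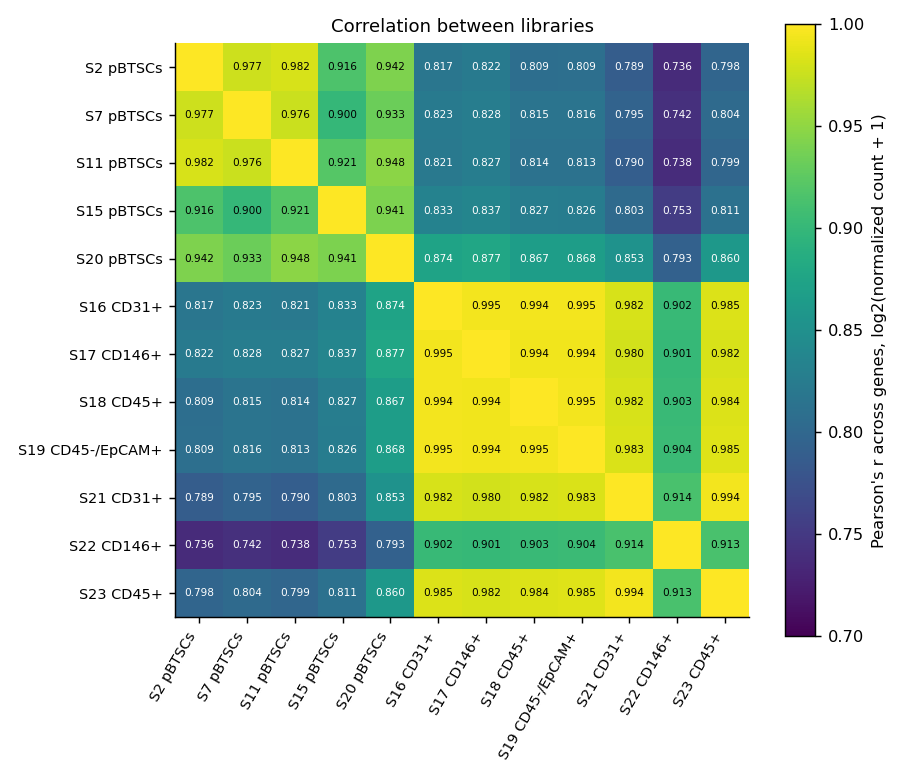
Pearson's r between libraries, across the 15576 genes tested, on log2(normalized count + 1), with the colour scale from 0.7 to 1. The 5 pBTSC libraries form the upper left block and the 7 liver libraries S16 to S23 the lower right block, in which the CD31+ and CD146+ libraries stand among the CD45+ and CD45-/EpCAM+ libraries and the shallow S22 stands apart.

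Between pBTSCs and the mean of the CD31+ and CD146+ groups, 3326 of the 15576 genes were DEGs, which is 21.4% of those tested. Of these, 1963 were higher and 1363 lower in pBTSCs, or 12.6% and 8.75% of the genes tested, and 2944 of the 3326 had groups that did not overlap, beside 36.5% of all genes tested. The median log2 fold change of all genes was 0.14. Once libraries were rescaled to equal totals, that median moved by 0.29 to 0.43, and the DEGs became 2872 higher and 1134 lower, so that 71.7% in place of 59.0% of the DEGs were higher. Fold changes near the threshold are read against this shift, and where it ends a call this is given.

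The DEGs took very different shares of 15 lists of cell type and pathway genes. Of the 22 hepatocyte genes tested, 21 were lower in pBTSCs, and so were 13 of 17 genes of liver sinusoidal endothelium and 11 of 14 genes of macrophages and Kupffer cells. Higher in pBTSCs were 14 of 17 genes of fibroblasts and matrix, 9 of 10 genes of Schwann cells and neurons, 12 of 31 genes of biliary and glandular epithelium and 8 of 13 erythroid genes. Of the 25 genes of endothelia in general 2 were higher and none lower, and of the 10 proliferation genes none passed in either direction.

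**Figure D2:**
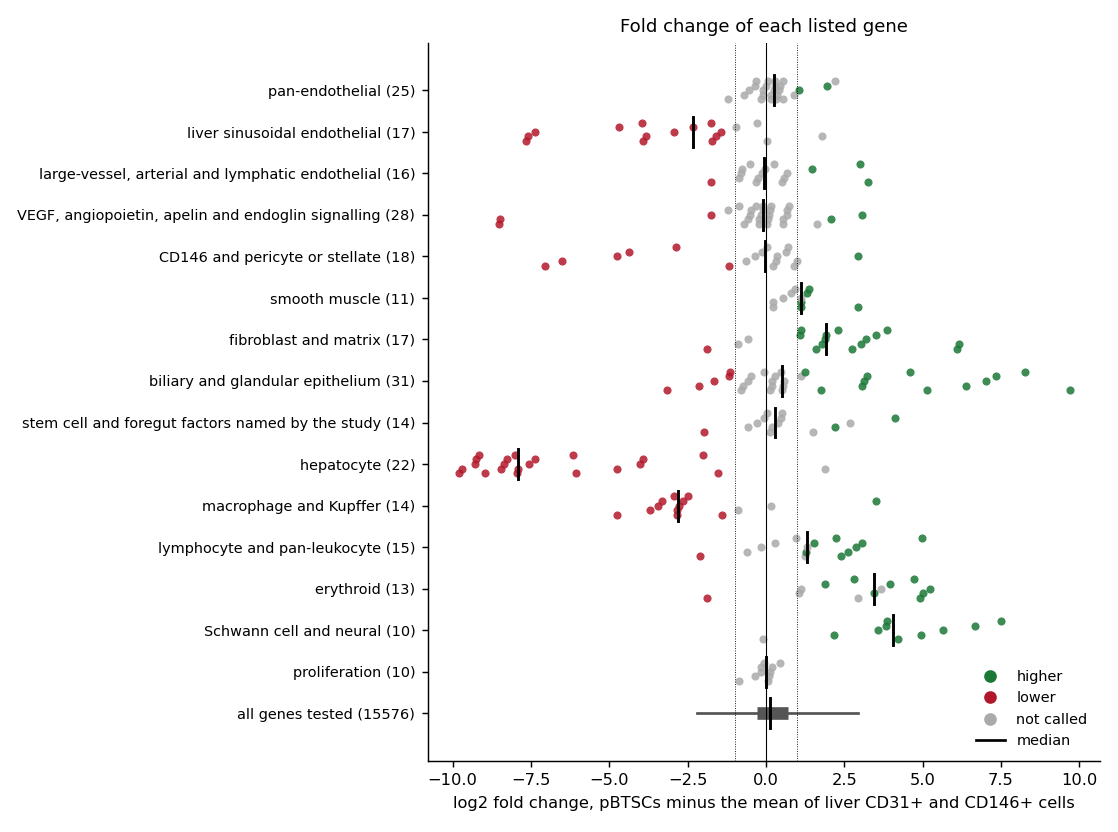
Log2 fold change of each listed gene (x axis, pBTSCs minus the mean of liver CD31+ and CD146+ cells), with the number of genes tested after each list name. Green points were called higher, red lower and grey neither, the dotted lines mark a log2 fold change of 1 in either direction, and the lowest line gives all 15576 genes from the 5th to the 95th percentile with the interquartile range as a bar. Hepatocyte, sinusoidal and macrophage genes lie to the left, matrix, neural and erythroid genes to the right, and genes of endothelia in general lie around a median of 0.25.

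In the values as deposited, the genes of both sort antigens overlapped between pBTSCs and the liver cells sorted for them. PECAM1 stood at 28048, 36576, 28776, 30691 and 34614 normalized counts in pBTSCs and at 25291 and 20102 in CD31+ cells and 28778 and 20655 in CD146+ cells. Only S17 reached into the range of the pBTSCs, and the mean log2 difference of 0.43 did not pass (two-sided exact permutation p = 0.0476, adjusted p = 0.190 over 4 antigen genes, where the smallest p is 0.0159). MCAM stood at 6247, 7656, 5740.2, 4331 and 4877 in pBTSCs and at 4751 and 3672 in CD31+ cells and 5226 and 4615 in CD146+ cells, a difference of 0.32 (two-sided exact permutation p = 0.127, adjusted p = 0.254). The 95% intervals of these differences in the limma fit, -0.19 to 1.04 for PECAM1 and -0.17 to 0.81 for MCAM, leave room for a rise of up to about the fold threshold and hold no fall of that size. With equal totals PECAM1 no longer overlapped, at a difference of 0.72 (two-sided exact permutation p = 0.0159, adjusted p = 0.0635). MCAM then differed by 0.61 (two-sided exact permutation p = 0.0317, adjusted p = 0.0635), and neither passed. The other sort antigens of the series overlapped as well. EPCAM, the epithelial adhesion molecule by which biliary tree stem cells are defined in the study, was at 2075, 1145, 1364, 1047 and 884 in pBTSCs and at 1155, 1161, 1052 and 1032 in the liver libraries (difference 0.18, two-sided exact permutation p = 0.587, adjusted p = 0.587). PTPRC, the gene of the leukocyte antigen CD45, was at 971, 534, 777, 1455 and 2139.5 and at 1247, 1752, 1349 and 2102 (difference -0.59, two-sided exact permutation p = 0.222, adjusted p = 0.296). In the CD45+ and CD45-/EpCAM+ libraries S18, S19 and S23, PECAM1 was at 26682, 25978 and 19884, within the range of the CD31+ and CD146+ libraries in 2 of the 3 and just below it in S23.

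Genes shared by all endothelia were carried by pBTSCs at levels of the same order as the liver sorts. Of the 28 listed, 25 had a row by that name and all 25 were tested, with 2 called, both higher, and a median log2 fold change of 0.25 beside 0.14 for all genes. Without the shallow libraries 1 and with equal totals 4 of them were higher. CDH5, the cadherin of endothelial junctions, was at 14242, 14932, 13953, 17225 and 17065 in pBTSCs and at 23137, 17232, 24843 and 15414 in the liver sorts, which overlapped (log2 fold change -0.36, standard error 0.40, adjusted p = 0.53). TIE1, ERG and FLT1, an endothelial receptor, an endothelial transcription factor and a VEGF receptor, had log2 fold changes of -0.11, -0.08 and 0.16 with adjusted p-values of 0.79, 0.89 and 0.71. TAL1, a factor of endothelial and blood precursors, had the highest fold change of the list and was not called (log2 fold change 2.21, standard error 0.87, adjusted p = 0.064), with S22 at 0 and 0.35 without the shallow libraries. The summed counts of the 25 genes made up 0.863% to 1.11% of the pBTSC libraries and 0.611% to 0.901% of the CD31+ and CD146+ libraries. In such bulk samples fewer cells of a type and less RNA per cell cannot be told apart.

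VWF and EMCN were the 2 endothelial genes that were higher in pBTSCs. VWF, the clotting glycoprotein stored in endothelia of larger vessels, was at 25734, 30693, 18211, 17881 and 13149.8 in pBTSCs and at 6909.9 and 3831 in CD31+ cells and 6954 and 3973 in CD146+ cells. The ranges did not overlap, and the fitted ratio of pBTSCs to the liver sorts was 3.89 (log2 fold change 1.96, standard error 0.28, adjusted p = 3.6e-05). EMCN, a sialomucin of capillary and venous endothelium, was at 3852, 3394, 3378, 3203 and 3819 against 1962, 1167, 2269 and 1513 (log2 fold change 1.07, standard error 0.26, adjusted p = 0.0046), again with no overlap, although without the shallow libraries its fold change was 0.96 and no longer beyond 1. S1PR1, a receptor that seals endothelial junctions, did not overlap either but stayed under the fold threshold (log2 fold change 0.90, standard error 0.22, adjusted p = 0.0044). KDR, the main VEGF receptor of endothelia, pointed the other way, with 9509, 8048, 7613, 7545 and 8542 in pBTSCs and 20803 and 18642 in CD31+ cells and 20516 and 16118 in CD146+ cells. All 5 pBTSC libraries lay below all 4 liver libraries, but the difference missed the threshold in the fit of all 20 libraries (log2 fold change -1.20, standard error 0.46, adjusted p = 0.057) and passed it when the 9 libraries were fitted alone (adjusted p = 0.00012). TEK, the angiopoietin receptor, also did not overlap and was not called (log2 fold change -0.69, standard error 0.52, adjusted p = 0.33).

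Genes of liver sinusoidal endothelium separated the groups. Of 21 listed, 17 had a row and were tested, 13 were lower in pBTSCs and none higher, and their median log2 fold change was -2.31, also with CRHBP, which had no liver library above 3 reads, at its lower bound. STAB2, the stabilin that clears hyaluronan, was at 40.6, 77.1, 153, 138 and 987 in pBTSCs and at 24985 and 39589 in CD31+ cells and 23083 and 27712 in CD146+ cells (log2 fold change -7.58, standard error 0.83, adjusted p = 2.1e-06). Library S20 was the highest of the pBTSC libraries and still far below every liver library. CLEC4G, a lectin of sinusoidal cells, was at 7.45, 29.7, 31.2, 37.7 and 329.5 against 7947, 9524, 7919 and 7188, a fitted ratio of 201 (log2 fold change -7.65, standard error 0.72, adjusted p = 4.6e-07). OIT3, a zona pellucida domain protein, followed the same order with 12.5, 33.6, 47.1, 25.1 and 318 against 6778, 9483, 6677 and 7356 (log2 fold change -7.38, standard error 0.70, adjusted p = 4.4e-07).

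The remaining scavenger and endocytic receptors were lower by smaller steps. MRC1, the mannose receptor, was at 813, 1038, 883, 1733 and 2038 against 19676, 20715, 19698 and 16336 (log2 fold change -3.97, standard error 0.51, adjusted p = 1.3e-05), and DNASE1L3, a secreted nuclease, fell by 4.68 on the log2 scale. STAB1, which macrophages express too, was at 3524, 4373, 3923, 5881 and 4523 against 14119.8, 17246, 13420.4 and 13353 (log2 fold change -1.72, standard error 0.43, adjusted p = 0.0057). LYVE1, the hyaluronan receptor of sinusoidal and lymphatic endothelium, was called (log2 fold change -1.59, standard error 0.44, adjusted p = 0.011) but overlapped, since S15 at 1482 lay just above the shallow S22 at 1461. With S15 and S20 alone for the pBTSCs, STAB1 and LYVE1 kept the direction and were not called, at -1.49 and -1.48.

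Factors that specify the sinusoid and signal from it were also lower. GATA4 was at 621, 667, 794, 842 and 1017 in pBTSCs and at 2633, 2626, 2713 and 2557 in the liver sorts, with no overlap (log2 fold change -1.76, standard error 0.21, adjusted p = 6.5e-06). MAF, another transcription factor of these cells, fell by 2.31 on the log2 scale (adjusted p = 0.00065). WNT2 and WNT9B, the Wnt ligands by which endothelia pattern hepatocytes, were at 47.6, 167, 108, 164 and 131 against 1599, 1431, 1771 and 1694 and at 18.2, 109, 32.4, 12.6 and 22.5 against 379, 340.2, 429 and 731, with log2 fold changes of -3.83 and -3.93 (adjusted p = 4.1e-05 and 1.2e-05). RSPO3, which strengthens Wnt signals, was lower as well (log2 fold change -1.43, standard error 0.40, adjusted p = 0.013) but not when S15 and S20 stood alone for the pBTSCs (log2 fold change -0.97, adjusted p = 0.22). F8, BMP2 and LIFR were not called, with adjusted p-values of 0.95, 0.066 and 0.57. CRHBP, the binding protein of a stress peptide, stood apart from the list. Its deep pBTSC libraries held 24.7, 9.27, 11 and 23.8 and the deep liver libraries at most 1.71, and in S22 its 64.5 were worth 1.24 reads. Of the fits made, CRHBP was called higher in that without the shallow libraries, where its pBTSC libraries overlapped with none of the liver.

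Several of these genes were highest in the pBTSC library with the most hepatocyte transcripts, but not all of them followed ALB in S15. In the pBTSC libraries STAB2, CLEC4G, OIT3, MRC1 and DNASE1L3 were each highest in S20, which also had the most ALB. S15 had 19832 of ALB against 376 in S2, while its STAB2, at 138, was no higher than in S11 at 153. OIT3 was also lower in S15 than in S11, and CLEC4G in S15 was only at the limit of detection. MRC1 went the other way and was higher in S15 than in every other pBTSC library but S20. The hepatocyte list made up 10.7% to 14% of the CD31+ and CD146+ libraries and 11.8% to 12.9% of the other liver libraries S18, S19 and S23. The sinusoidal list made up 0.391% to 0.514% and 0.397% to 0.559% of the same libraries, and 0.0751% to 0.110% of the pBTSC libraries. What part the mixture of cells had in the endothelial results was not tested.

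**Figure D3:**
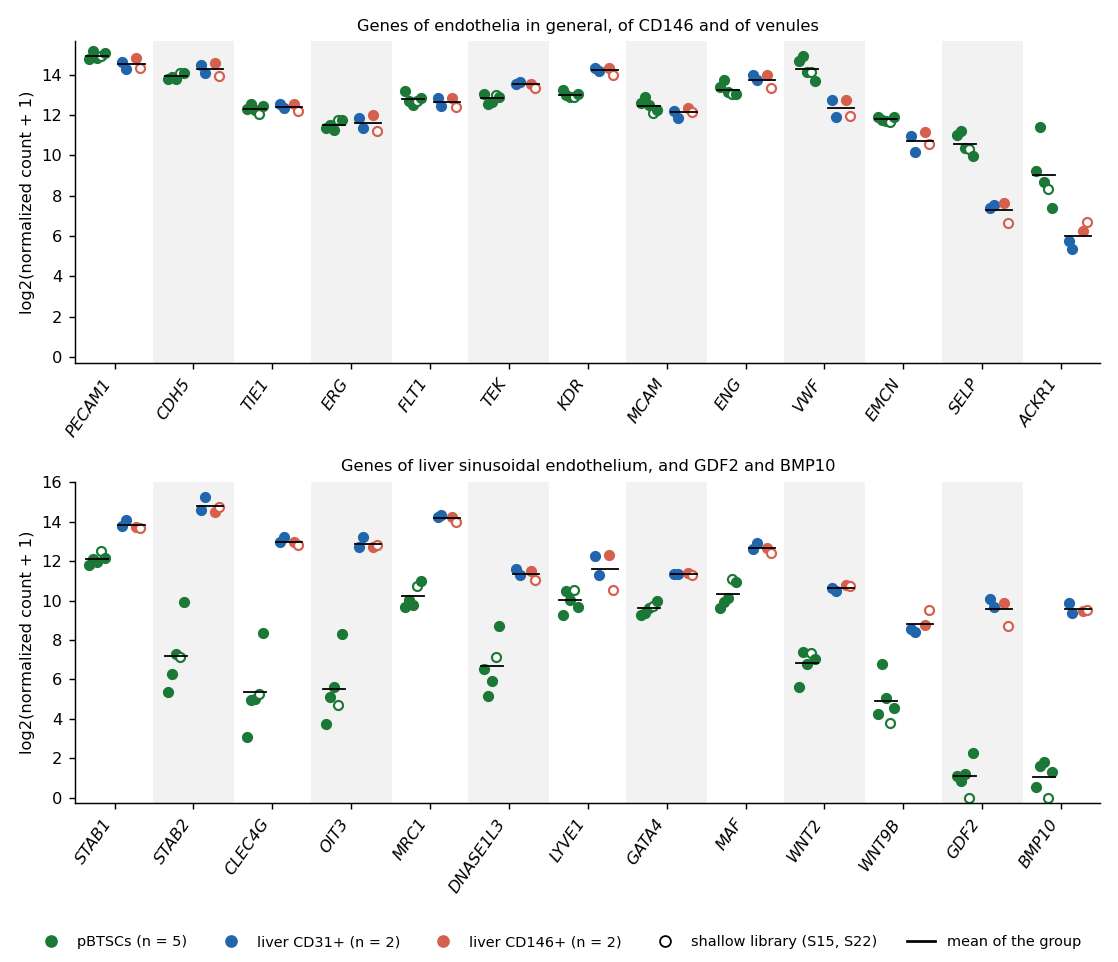
Log2(normalized count + 1) of single genes (y axis) in each pBTSC (green), liver CD31+ (blue) and liver CD146+ library (red), with open points for the shallow libraries S15 and S22 and black lines for the means of the 5 pBTSC and of the 4 liver libraries. In the upper panel most genes lie side by side and VWF, EMCN, SELP and ACKR1 lie higher in pBTSCs. In the lower panel each gene has a lower pBTSC mean, with log2 fold changes down to -8.51 for BMP10.

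SELP and ACKR1, genes of venules, were higher in pBTSCs, and neither the other venous genes tested nor the arterial ones were called. The list of large vessels, arteries and lymphatics had 16 genes tested, 3 higher and 1 lower, with a median of -0.08 that turned to 0.21 with equal totals, and 2 in place of 4 called with S15 and S20 alone. SELP, the P-selectin by which venules catch leukocytes, was at 2094, 2369, 1306, 1264 and 984 in pBTSCs and at 166 and 184 in CD31+ cells and 197 and 99.7 in CD146+ cells, 9.64-fold higher on the fitted scale (log2 fold change 3.27, standard error 0.33, adjusted p = 9.2e-07). ACKR1, the chemokine-binding receptor of venules, was at 605, 2747, 413, 327 and 164 against 53.2, 40.4, 74.1 and 104 (log2 fold change 3.0, standard error 0.60, adjusted p = 0.0011). Its pBTSC libraries spread widely, from 164 to 2747, and the gene was not called with S15 and S20 alone (log2 fold change 1.84, adjusted p = 0.067). CCL21, the chemokine of lymphatic vessels, was highest in S15 and S20 at 8883 and 6953, against at most 1549.7 in the liver libraries (log2 fold change 1.48, standard error 0.43, adjusted p = 0.014), and without the shallow libraries it was not called (log2 fold change 1.13, adjusted p = 0.097). FLT4, the receptor of VEGF-C on lymphatic and sinusoidal endothelium, was lower in pBTSCs, at 797, 1041, 735, 1545 and 1043 against 3665, 3655, 3523 and 2765 (log2 fold change -1.76, standard error 0.49, adjusted p = 0.012), and not called with S15 and S20 alone (log2 fold change -1.41, adjusted p = 0.15). Of the arterial genes, GJA4, GJA5, EFNB2 and DLL4 had log2 fold changes of -0.26, -0.30, -0.02 and -0.51, with adjusted p-values from 0.13 to 0.95.

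Among the ligands of vascular signalling, GDF2 and BMP10 differed most. These encode BMP9 and BMP10, the circulating ligands of the endothelial receptor ALK1 that are made in the liver. GDF2 was at 1.13, 0.775, 1.27, 0 and 3.83 in pBTSCs and at 1067 and 814 in CD31+ cells and 939 and 417 in CD146+ cells (log2 fold change -8.50, standard error 0.44, adjusted p = 7e-10). BMP10 was at 0.454, 2.07, 2.54, 0 and 1.44 in pBTSCs and at 937 and 661 in CD31+ cells and 720.2 and 731 in CD146+ cells (log2 fold change -8.51, standard error 0.36, adjusted p = 9.1e-11). Both genes were close to 0 in all 5 pBTSC libraries and well above the limit of detection in all 4 liver libraries. They stood at a similar height in S18, S19 and S23, with 1019.5, 1004 and 824 for GDF2 and 786, 779.6 and 689.9 for BMP10. The receptor genes of these ligands, ACVRL1 (ALK1) and ENG, were present in both groups. ACVRL1 was at 3987, 3893, 3357, 4111 and 4699 against 2621, 2324, 2820.5 and 2234, without overlap but under the fold threshold (log2 fold change 0.68, standard error 0.20, adjusted p = 0.016), and ENG was not called (log2 fold change -0.49, standard error 0.32, adjusted p = 0.26). SMAD6, an inhibitor that these signals induce, was under the fold threshold in the other direction (log2 fold change -0.85, standard error 0.25, adjusted p = 0.016), and the targets ID1 and ID3 were not called (adjusted p = 0.68 and 0.91).

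The angiopoietin and VEGF ligands gave 2 more called genes. ANGPTL1, an angiopoietin-like protein, was at 858, 929, 1919.8, 2720.2 and 1819.6 in pBTSCs against 370.1, 307, 435 and 332 (log2 fold change 2.06, standard error 0.42, adjusted p = 0.0011). VEGFD, a lymphatic growth factor, was called (log2 fold change 3.07, standard error 1.05, adjusted p = 0.034) but ranged from 84.7 to 1150.0 in pBTSCs, overlapped with the liver libraries and was not called without the shallow ones, among them S22, which lists it at 0 (log2 fold change 0.96, adjusted p = 0.37). VEGFA was lower in every pBTSC library, 1991, 2396, 2033, 2053 and 1885 against 3462, 2961, 3275 and 2742, and was not called (log2 fold change -0.58, standard error 0.24, adjusted p = 0.077). ANGPT2, which loosens vessels, was higher without overlap and under the fold threshold (log2 fold change 0.74, standard error 0.19, adjusted p = 0.0069). In all, 28 genes of this list were tested, with 2 higher, 3 lower (GDF2, BMP10 and FLT4, which stands in both lists) and a median of -0.09, or 0.19 with equal totals.

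Of the perivascular genes, several of stellate cells were lower in pBTSCs, and the pericyte genes named below were not called. LRAT, the enzyme that esterifies vitamin A for storage, was at 2.14, 2.20, 3.33, 13.2 and 7.03 in pBTSCs and at 955 and 678 in CD31+ cells and 773 and 546 in CD146+ cells (log2 fold change -7.05, standard error 0.60, adjusted p = 1.6e-07). Only S15 was under its limit of detection, and the deep pBTSC libraries were low but above theirs. The liver libraries were also above their limits, the deep ones far above. LHX2, a transcription factor of quiescent stellate cells, was at 3.33, 1.62, 6.01, 26.3 and 8.04 against 323, 285, 271 and 54.6 (log2 fold change -4.74, standard error 0.57, adjusted p = 5.7e-06), and the fold change was -5.80 without the shallow libraries. COLEC11, a collectin, and ECM1, a matrix protein, fell by 4.39 and 2.87 on the log2 scale, and HGF, the hepatocyte growth factor, by 1.18 (adjusted p = 7.6e-07, 0.00079 and 0.014). The HGF groups overlapped, with S22 at 467, and HGF was not called with equal totals (log2 fold change -0.89, adjusted p = 0.071) or with S15 and S20 alone (log2 fold change -1.14, adjusted p = 0.096). VTN, which hepatocytes make as well, was at 233, 330.5, 268, 666 and 1201 against 34805, 47868, 31721 and 50265 (log2 fold change -6.52, standard error 0.45, adjusted p = 2.1e-08). The pericyte genes PDGFRB, CSPG4, RGS5 and NOTCH3 had log2 fold changes of 0.91, 0.70, 0.05 and 0.64 and were not called, although PDGFRB did not overlap and had an adjusted p of 0.01. Of 18 genes tested DES, shared with the muscle list, was higher, 6 were lower and 11 were not called, other listed stellate cell genes among them. The median of -0.04 became 0.25 with equal totals.

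Muscle genes were higher. DES, the intermediate filament of muscle that stellate cells share, was at 6836, 8325, 4155, 10038 and 11199.8 in pBTSCs and at 1124 and 687 in CD31+ cells and 1052 and 1262 in CD146+ cells (log2 fold change 2.93, standard error 0.43, adjusted p = 5.3e-05). CNN1 and TAGLN, both actin-binding proteins of smooth muscle, rose by 1.39 and 1.32 on the log2 scale (adjusted p = 0.0026 and 0.018), and LMOD1 and SYNPO2 by 1.11 and 1.11 (adjusted p = 0.0026 and 0.0088). With S15 and S20 alone TAGLN and LMOD1 were not called, with 0.84 and 0.76, and without the shallow libraries SYNPO2 was not, with 0.96. ACTA2, smooth muscle actin, was at 57757, 89762, 61974, 34759.8 and 31389.6 against 21541, 20729, 26289.5 and 25723, above every liver library but not called (log2 fold change 1.13, standard error 0.43, adjusted p = 0.059). In total 5 of 11 smooth muscle genes were higher and none lower, with a median of 1.11. That count was 8 with equal totals and 3 with S15 and S20 alone.

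Matrix genes rose broadly, and the collagens and LUM were highest in S11, S15 and S20. COL1A1, the main chain of collagen I, was at 129440, 141140, 381293, 581225 and 543321 normalized counts in pBTSCs and at 47931 and 19974 in CD31+ cells and 48370.1 and 23116 in CD146+ cells (log2 fold change 3.19, standard error 0.50, adjusted p = 9.6e-05). COL3A1 was at 144378, 146547, 337875, 712328 and 762054 against 73757, 32692, 73597 and 33593 (log2 fold change 2.74, standard error 0.58, adjusted p = 0.0016). COL1A1 and COL3A1 alone made up 0.733% and 0.818% of S2 and 2.79% and 3.91% of S20, and no more than 0.220% and 0.334% of any CD31+ or CD146+ library. LUM, a small proteoglycan that orders collagen fibrils, was at 4227, 2514, 10049.5, 19666 and 22905 against 247, 77.8, 195 and 52.2 (log2 fold change 6.18, standard error 0.66, adjusted p = 1.7e-06), or 5.41 without the shallow libraries. Its relative DCN rose by 3.85, or 3.16 without them (adjusted p = 2.2e-05 and 0.00095), and MFAP5, of elastic microfibrils, by 6.11, or 4.27 without the shallow libraries (adjusted p = 0.001 and 0.011). ELN, the elastin gene, was at 24982, 52970.1, 49238, 30839.8 and 24229 against 9203, 7926, 10411 and 10150 (log2 fold change 1.88, standard error 0.38, adjusted p = 0.001). FN1 was the exception and was lower in pBTSCs, at 19998, 26072, 37852, 48178 and 39857 against 114851, 134259, 101862 and 134806 (log2 fold change -1.88, standard error 0.46, adjusted p = 0.0049). Fibronectin is also a plasma protein of hepatocytes, and with S15 and S20 alone FN1 was not called (log2 fold change -1.46, adjusted p = 0.1). POSTN and THY1 were not called (log2 fold change -0.58, standard error 0.39, adjusted p = 0.28 and log2 fold change -0.89, standard error 0.56, adjusted p = 0.24).

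Hepatocyte genes gave the largest falls. ALB, the serum albumin gene, was at 376, 287, 288, 19832 and 25087 normalized counts in pBTSCs and at 1428840 and 1688990 in CD31+ cells and 1366700 and 1789960 in CD146+ cells, which is 6.21% to 7.55% of those libraries (log2 fold change -9.81, standard error 1.24, adjusted p = 1e-05). S15 and S20 held far more ALB than S2, S7 and S11 and far less than any liver library. With S15 and S20 alone the log2 fold change was -6.13 with S2, S7 and S11 alone -12.27, and without the shallow libraries -10.59. All but 1 of the 22 genes were called lower, and the list had a median of -7.93. The log2 fold change of the hepatocyte factor HNF4A was -2.01, and those of transthyretin (TTR) and apolipoprotein B (APOB) were -8.95 and -8.45. APOA1, a lipoprotein of liver and gut, fell least, with 23518, 27035, 23582, 22643 and 27517 against 64679, 77288, 63518 and 79879 (log2 fold change -1.52, standard error 0.36, adjusted p = 0.0039). AFP, the fetal albumin relative, was the gene that was not called, at 8066, 1048, 3856, 12087 and 8054 in pBTSCs against 961, 1870.3, 914 and 2034 (log2 fold change 1.89, standard error 1.56, adjusted p = 0.39). The CD31+ and CD146+ libraries lay on both sides of the CD45+ and CD45-/EpCAM+ libraries next to them in the hepatocyte list. S16 and S17 had less of it, at 11.3% and 10.7%, than S18 and S19, at 12.9% and 12.5%. S21 and S22 had more, at 13.2% and 14%, than S23, at 11.8%, as the plot of list totals by library shows.

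**Figure D4:**
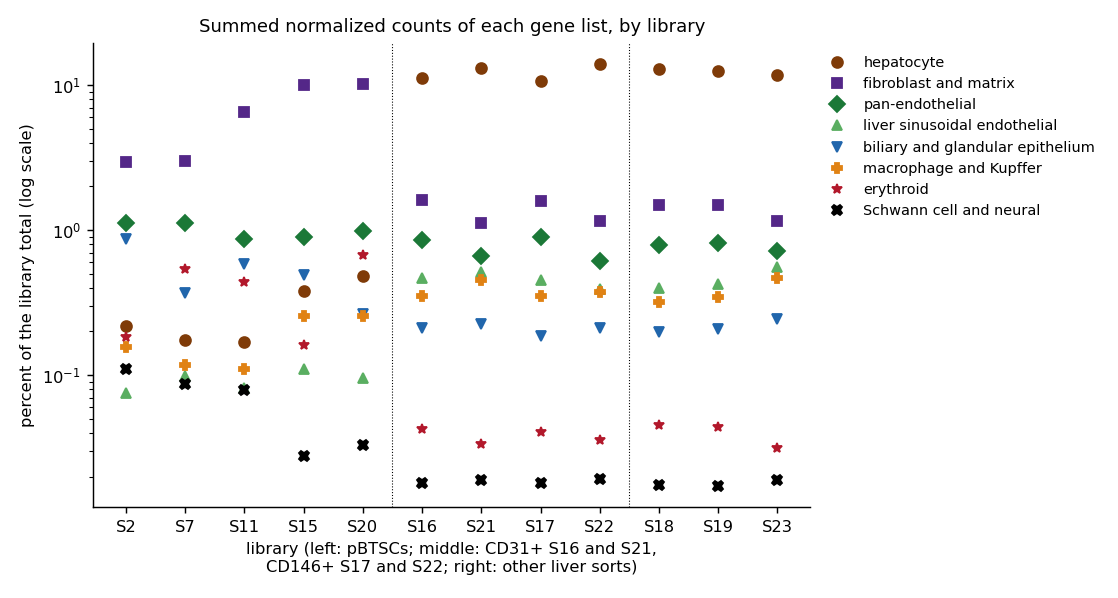
Summed normalized counts of 8 gene lists as a percent of each library's total (y axis, log scale), for the 5 pBTSC libraries, the 4 CD31+ and CD146+ libraries and the 3 other liver libraries S18, S19 and S23 (x axis, 1 point per list and library). Hepatocyte genes make up at most 0.482% of a pBTSC library and at least 10.7% of a CD31+ or CD146+ library, matrix genes reach 10.2% in pBTSCs, and the middle and right groups of points stand at like heights.

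Epithelial genes moved in both directions. Of 31 tested 12 were higher in pBTSCs and 5 lower, and 14 were not called. Those that rose included several secreted products of mucous epithelium. The gel-forming mucin MUC5AC was at 6209, 1699, 7157, 6266 and 2099 in pBTSCs and at 46.2, 29.8, 18 and 0 in the liver sorts (log2 fold change 8.27, standard error 1.02, adjusted p = 8e-06), with a fold change of 7.04 without the shallow libraries. Its relative MUC5B was at 18979.5, 4355, 7445, 12615 and 4974 against 106, 48, 57.5 and 52.3 (log2 fold change 7.02, standard error 0.92, adjusted p = 1.6e-05). S7 was the lowest pBTSC library for both and still far above every liver library. OLFM4, a secreted glycoprotein of crypt epithelium, was at 7201, 3674, 8254, 880.4 and 434 against 1.17, 2.14, 9.47 and 0 (log2 fold change 9.70, standard error 0.95, adjusted p = 6.4e-07). KRT20, a keratin of gut-type surface epithelium, and AGR2, which folds mucins, rose by 7.34 and 6.39 (adjusted p = 3.3e-07 and 2.2e-08), KRT20 by 6.48 without the shallow libraries. SPP1, osteopontin of bile ducts, was at 51735, 28688, 44052, 29923 and 13614 against 3909, 3984, 3407 and 3443 (log2 fold change 3.05, standard error 0.30, adjusted p = 7e-07).

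Genes of epithelial junctions, splicing and ducts were among those that were lower. CDH1, the epithelial cadherin, was at 6839, 4090.1, 4763, 4665 and 4046 in pBTSCs and at 14090.2, 17101, 13259 and 16623 in the liver sorts (log2 fold change -1.66, standard error 0.28, adjusted p = 0.00021). ESRP2, an epithelial splicing regulator, was at 329, 178, 179, 264 and 204 against 1989, 2135, 1766 and 2149 (log2 fold change -3.15, standard error 0.38, adjusted p = 5.5e-06), whereas its relative ESRP1 was higher (log2 fold change 1.26, standard error 0.45, adjusted p = 0.042), though not without the shallow libraries, at 0.99, or with S15 and S20 alone, at 0.77. ONECUT1, a factor of liver and bile duct development, fell by 2.15 (adjusted p = 0.00014). CFTR, the chloride channel of bile ducts, was at 887, 523, 635, 660.0 and 677 against 1079, 2143, 922 and 2134 (log2 fold change -1.13, standard error 0.28, adjusted p = 0.0051). The liver values of CFTR were lower in S16 and S17 than in S21 and S22, and the gene was not called without the shallow libraries (log2 fold change -0.83, adjusted p = 0.071) or with equal totals (log2 fold change -0.84, adjusted p = 0.02). CLDN4 was also called (log2 fold change -1.16, standard error 0.42, adjusted p = 0.046) but was not without the shallow libraries (log2 fold change -1.04, adjusted p = 0.18) or with equal totals (log2 fold change -0.88, adjusted p = 0.09). The duct keratin KRT7 and the duct factor SOX9 were not called (log2 fold change 0.52, standard error 0.34, adjusted p = 0.27 and log2 fold change -0.58, standard error 0.26, adjusted p = 0.11).

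**Figure D5:**
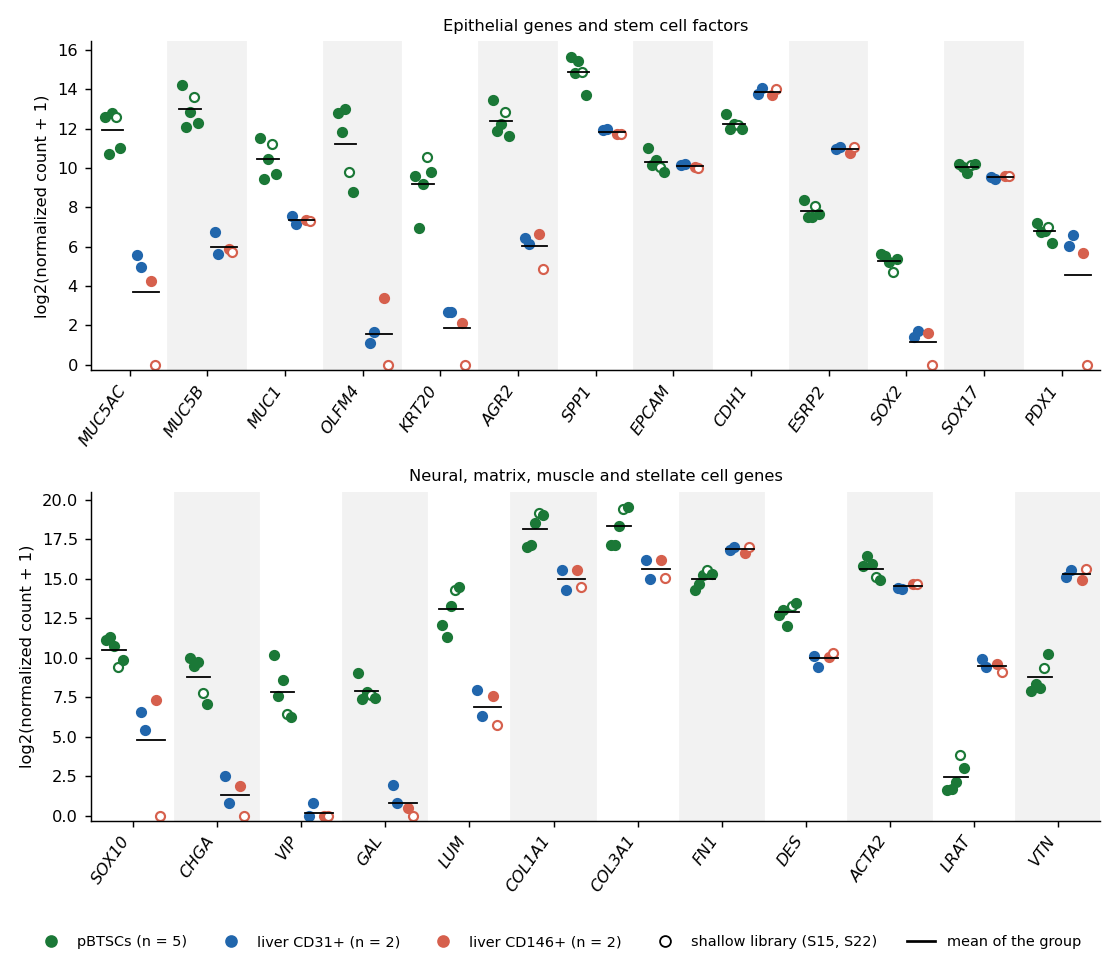
Log2(normalized count + 1) of single genes (y axis) in each pBTSC (green), liver CD31+ (blue) and liver CD146+ library (red), with open points for the shallow libraries S15 and S22 and black lines for the means of the 5 pBTSC and of the 4 liver libraries. Mucin, neural and matrix genes lie higher in pBTSCs, CDH1, ESRP2, FN1, LRAT and VTN lie lower, and EPCAM overlaps.

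Of the 14 stem cell and foregut genes tested, 2 were higher and 1 lower, so that 21.4% were called, the same share as of all genes tested. SOX2, a factor of stem cells and of foregut and nerve, was at 47.7, 45.7, 35.6, 25.1 and 40.7 in pBTSCs, where the value of S15 is 2.0 reads and under its limit. No liver library held more than 3 reads of SOX2, so that the pBTSC median exceeded the highest limit among the deep liver libraries at least 17.8-fold (adjusted p = 2.3e-05). SOX17, which marks both biliary progenitors and endothelium, was at 1170.0, 1055, 856, 1131 and 1168 against 737, 703, 774 and 782. The ranges did not meet, but SOX17 was not called (log2 fold change 0.51, standard error 0.26, adjusted p = 0.15). PDX1, a factor of pancreas and biliary tree, was called (log2 fold change 2.22, standard error 0.73, adjusted p = 0.028) but overlapped, with 147, 105, 109, 126 and 71.9 against 63.9, 93.8, 49.4 and 0, and 3 reads in S22 would be worth more than any of its pBTSC values. Without the shallow libraries it was not called (log2 fold change 0.75, adjusted p = 0.16). NCAM1, an adhesion molecule of early hepatobiliary cells and of nerve, was at 2219, 2204, 2711, 1903 and 2100.2 against 326, 234, 382 and 483. No library overlapped, and the gene missed the threshold in the fit of all 20 libraries (log2 fold change 2.68, standard error 1.08, adjusted p = 0.069) but not without the shallow libraries (log2 fold change 2.82, adjusted p = 3e-05) or in the fit of the 9 libraries (adjusted p = 8.2e-06). FOXA2, an endoderm factor, was lower in pBTSCs, at 183, 102, 104, 141 and 92.6 against 394, 505, 348 and 746 (log2 fold change -1.97, standard error 0.31, adjusted p = 0.0001). LGR5, PROM1, CXCR4 and CD44 were not called, with log2 fold changes from -0.29 to 0.48.

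Neural genes were found in every pBTSC library. SOX10, the factor of glia, was at 2241, 2503, 1751, 672 and 933 in pBTSCs and at 94.4, 42.2, 157 and 0 in the liver sorts (log2 fold change 5.66, standard error 0.94, adjusted p = 0.00017), or 4.11 without the shallow libraries (adjusted p = 1.7e-05). CDH19, a cadherin of Schwann cells, was at 1313, 1056, 1115, 477 and 1004 against 106, 19.1, 148 and 52.2 (log2 fold change 3.88, standard error 0.88, adjusted p = 0.0028). UCHL1, a neuronal ubiquitin hydrolase, was at 421, 234, 364, 239 and 161 against 60.2, 65.5, 60.7 and 0 (log2 fold change 3.59, standard error 0.78, adjusted p = 0.002), and PRPH, a filament of peripheral neurons, at 453, 169.8, 263, 102 and 114 against 23.3, 43.2, 27.6 and 0 (log2 fold change 3.84, standard error 0.71, adjusted p = 0.00049). Without the shallow libraries the fold changes of UCHL1 and PRPH were 2.14 and 2.85, and both were still called. ERBB3, which epithelia share, was the one listed gene that was not called (log2 fold change -0.10, standard error 0.29, adjusted p = 0.83). The list had a median of 4.05, or 3.92 with ELAVL4 of neurons at its bound, which had no liver library above 3 reads and was at least 15.5-fold higher in the pBTSC median than the highest limit of the deep liver libraries.

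Genes of blood cells moved apart by lineage. Macrophage genes were lower in pBTSCs, among them TIMD4, a receptor of Kupffer cells for dead cells, at 29.6, 43.2, 37.1, 109 and 165 against 1366, 2273, 1447 and 1817 (log2 fold change -4.76, standard error 0.57, adjusted p = 6.2e-06). MARCO, CD14 and C1QA, a scavenger receptor, an endotoxin receptor and a complement chain, fell by 3.70, 3.45 and 3.30 on the log2 scale (adjusted p = 1.7e-05, 4.6e-07 and 0.00012). LYZ, the lysozyme gene, was the macrophage gene that rose, at 813, 1069, 401, 377 and 369 against 65.6, 24.4, 57.4 and 52.1 (log2 fold change 3.51, standard error 0.70, adjusted p = 0.00091). Lymphocyte genes were higher in 8 of 15 cases and lower in 1, which was CD4, the co-receptor of helper T cells (log2 fold change -2.11, standard error 0.59, adjusted p = 0.012). CD4 was not called without the shallow libraries (log2 fold change -1.82, adjusted p = 0.071) or with S15 and S20 alone (log2 fold change -2.25, adjusted p = 0.059). IL7R, the interleukin 7 receptor of T cells, was at 48.8, 28.9, 47.1, 163 and 158 against 1.07, 2.29, 2.67 and 0 (log2 fold change 5.0, standard error 0.74, adjusted p = 5.5e-05), or 4.23 without the shallow libraries. S15 and S20 had the most of it, and the liver libraries had next to none. CD79A, of the B cell receptor, was at 333, 396, 275, 402 and 435 against 175, 155, 174 and 104 (log2 fold change 1.28, standard error 0.26, adjusted p = 0.0011). Of the other lymphocyte genes that were called, CD3D and CD2 were not called without the shallow libraries (log2 fold change 1.39, adjusted p = 0.19 and log2 fold change 1.27, adjusted p = 0.23). In place of 9 of these genes 4 were called when S16 was averaged with S17 and S21 with S22, and 5 with S2, S7 and S11 alone.

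Erythroid genes were mostly higher in pBTSCs. HBB, beta globin, was at 28770.1, 92977, 76431, 28318 and 125452 in pBTSCs and at 2405, 1367, 2480.2 and 1355 in the liver sorts (log2 fold change 5.02, standard error 0.84, adjusted p = 0.00019). The heme enzyme ALAS2 and the globin chaperone AHSP rose by 3.95 and 5.23 (adjusted p = 0.00064 and 0.0029). With S15 and S20 alone 3 in place of 8 erythroid genes were higher. TFRC, the transferrin receptor, which many cells use, was lower (log2 fold change -1.89, standard error 0.38, adjusted p = 0.001). The proliferation genes lay around a median of 0.01, with MKI67 at 1872, 1861, 3310.5, 2499 and 1844 against 2503, 1999, 2153 and 1618 (log2 fold change 0.12, standard error 0.48, adjusted p = 0.88).

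The 15 largest rises among genes that did not overlap were led by genes known from mucous epithelium and nerve. Besides OLFM4, MUC5AC, MUC5B, KRT20 and CHGA, they held the neuropeptide genes VIP, GAL and CARTPT and the granule protein gene SCG2. VIP was at 1167, 191, 394, 87.9 and 74.8 in pBTSCs and CARTPT at 417, 110.2, 256, 75.3 and 17.7, and no liver library held more than 3 reads of either. The pBTSC medians were at least 83.4-fold and 48.2-fold higher than the highest limit of the deep liver libraries, and that of SCG2 at least 108-fold. CHGA, chromogranin A of endocrine and neural granules, was at 1025, 702, 856, 214 and 134 against 4.84, 0.762, 2.67 and 0 (log2 fold change 7.49, standard error 0.69, adjusted p = 3.4e-07). GAL was at 522, 168, 228, 196 and 178 against 2.80, 0.79, 0.408 and 0 (log2 fold change 7.06, standard error 0.51, adjusted p = 3.2e-08). The sodium-proton exchanger SLC9A3 and the amino acid transporter SLC6A14, both of absorptive surfaces, rose by 7.53 and 6.89, or 6.54 and 6.03 without the shallow libraries, and TCN1, a secreted vitamin B12 carrier, was at 32545, 25476, 22245, 22484 and 11321 against 154, 349, 112 and 198 (log2 fold change 6.85, standard error 1.04, adjusted p = 7.7e-05). GREM1, a BMP antagonist of stroma, was at 369.6, 692, 431, 458 and 339 against 13.4, 2.29, 4.68 and 0 (log2 fold change 6.78, standard error 0.71, adjusted p = 1.3e-06), or 6.14 without the shallow libraries, and AHRR, the repressor of the aryl hydrocarbon receptor, rose by 6.67.

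The 15 largest falls were of plasma proteins and metabolic enzymes. Those reported here were ALB, the plasma protein genes SERPINA3-2, SERPINC1, CP, HPX, APOC2, F9 and C8A, and the enzyme genes ACSM4, CYP2C49, CYP2E1, ADH4, G6PC and BHMT. Their log2 fold changes lay between -10.07 for SERPINA3-2 and -9.30 for BHMT, with adjusted p-values from 2.1e-06 to 0.002. F9, coagulation factor IX, was at 1.80, 1.87, 0.631, 156 and 249.7 in pBTSCs and at 9927 and 13701 in CD31+ cells and 9275 and 12732 in CD146+ cells (log2 fold change -9.66, standard error 1.19, adjusted p = 7.5e-06). Without the shallow libraries the fold changes were -10.42 for F9, -10.17 for APOC2 and -9.95 for G6PC. In S2, S7 and S11 these genes other than ALB were at most 56.4, and in S20 they were between 161 and 1020.1. SERPINA3-2 and CYP2C49 belong to gene families whose members share sequence, so that reads may be split among them.

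Each liver sort was also compared with pBTSCs alone. Against CD31+ cells 2236 genes were DEGs, or 14.4% of those tested, with 1049 higher (6.73%) and 1187 lower (7.62%) in pBTSCs. Against CD146+ cells 3462 were DEGs, or 22.2%, with 2255 higher (14.5%) and 1207 lower (7.75%). Without the shallow S22, which then left 1 CD146+ library whose spread is taken from the other groups, the second count was 1152, with 472 higher and 680 lower. Without S21 the first was 1018. Whether the comparison with CD146+ cells gives more DEGs than that with CD31+ cells thus depends on S22. Between CD31+ and CD146+ cells limma called no gene, while 831 had an unadjusted p under 0.05, and 1466 genes were called when S17 was left out and the shallow S22 stood alone for CD146+ cells. Within the libraries S16 to S23, limma called none of 14324 genes between the 4 CD31+ or CD146+ libraries and the 3 CD45+ or CD45-/EpCAM+ libraries, and 6 had an unadjusted p under 0.05. With the sets S16 to S19 and S21 to S23 as a block, which was added after seeing the data, none was called either and 11 had an unadjusted p under 0.05, or 232 when S22 was left out as well. The 831 genes between CD31+ and CD146+ cells were close to what chance gives at that threshold. The 6, 11 and 232 were all below it, the first 2 far below, so that a missing call says little of any single gene. The differences themselves are given with their intervals. In the blocked fit PECAM1 differed by 0.04 on the log2 scale (95% interval -0.11 to 0.18), MCAM by 0.11 (-0.09 to 0.32) and STAB2 by -0.04 (-0.42 to 0.34), where the unblocked value of STAB2 was 0.07. Between CD31+ and CD146+ libraries the same block left no gene called and 492 with an unadjusted p under 0.05, fewer than chance gives. The log2 difference of MCAM in that limma fit, CD31+ minus CD146+, was -0.23 (95% interval -0.41 to -0.06, adjusted p = 0.52).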

How the data were processed

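Both pBTSCs and liver cells sorted by CD31, CD146, CD45 and EpCAM were profiled by stranded, polyA-selected RNA sequencing (RNeasy extraction, Illumina TruSeq). By the study's methods, the pBTSCs were prepared from freshly isolated cells that formed organoids in a short culture. The deposited table holds normalized counts (signal values, not raw reads) for 25764 genes in 20 libraries. The submitters' processing notes name STAR, Salmon and DESeq2, and the genome build, annotation and tool versions were not given in the sources used here, so no coordinates or sequences are printed. Rows carry a gene name and a biotype; 7782 had no name and 5561 were at 0 in every library. Between 60.7% and 84.3% of low values lay within 0.05 of a whole number of reads, which was too few to recover reads, and no count test was run. The depths given are therefore estimates.

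Values were taken as log2(value + 1). Genes reaching 10 in 2 or more libraries were fitted with limma 3.58.1 (R 4.3.3, lmFit and eBayes with trend) on all 20 libraries in 6 groups, with Benjamini-Hochberg adjustment, and pBTSCs were contrasted with the mean of CD31+ and CD146+ cells. Sort antigen genes were also tested by exact permutation (scipy 1.17.1). Groups came from the cell type labels. Genes named were those of 15 lists (277 symbols, 254 with a row) and the 15 largest rises and falls among DEGs that have a name, do not overlap and have a mean of at least 100 in the higher group. Members and lists were chosen with earlier results of these data known. The fit was tested on simulated data. Alternatives were pseudocounts of 0.1 and 10, no filter and a filter of 50 in 4 libraries, equal totals, quantile normalization, no trend, array weights, the 9 libraries alone, fits without the 3 libraries under 2000000 reads, pBTSC libraries split by number, and each library left out. Averaging S16 with S17 and S21 with S22, and a block of S16 to S19 and S21 to S23 within the liver libraries, were added after seeing the data. A few listed genes are not reported here.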

Additional observations from a re-analysis of the deposited data

Results flagged for a closer look

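Of the 294 groups of 4 or 5 libraries examined over the 147 genes named, 21 had 1 library apart from the others by Dixon's criterion, where chance gives about 1 in 20. In 15 of these the library was S21 or S22 of the liver sorts, in 14 of them S22, the shallowest library. S22 was the lowest for RSPO3 at 299.9 normalized counts, FLT4 at 2765, COLEC11 at 1392 and LHX2 at 54.6, and it listed TAL1, VEGFD, MFAP5, PDX1, CD3D, CD2, PRPH and UCHL1 at 0. It was the highest for CRHBP at 64.5, worth 1.24 reads, and for ALAS2 at 171, worth 3.28 reads. For VIP the library apart was S21 at 0.762, worth 1.0 read, with the other liver libraries at 0.

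Among the pBTSC libraries, S7 was highest for S1PR1 at 5196 (the others 3672 or below), S15 for RSPO3 at 313 and S2 for GAL at 522. S20 was lowest for LIFR at 2873, S15 for CDH19 at 477 and S2 for CNN1 at 6242.

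The pBTSC libraries S15 and S20 of wild-type piglets differed from S2, S7 and S11 of the H2B-GFP line, in the same limma fit, in 204 of the 15576 genes, and the line cannot be told apart from the storage number. The RNA integrity number, which falls as RNA degrades, was by the study's supplementary information also lower in S2, S7 and S11 than in S20. None was given for S15, and none for the liver libraries in the sources used here. The part of RNA integrity in any difference of this report was not tested. All but 1 of the 15 genes named here that differed are hepatocyte genes, higher in S15 and S20. The log2 differences were 6.91 for SERPINA3-2, 6.86 for CYP2E1, 6.39 for F9, 6.35 for APOC2, 6.14 for ALB and 6.08 for ACSM4. They were 5.85 for SERPINC1, 5.77 for HPX, 5.40 for G6PC, 5.38 for C8A, 5.19 for TTR and 5.17 for BHMT, and 4.72 for CP and 4.02 for APOB. The largest adjusted p among these was 0.0042 for CP. CCL21, the lymphatic chemokine, was higher by 1.83 (adjusted p = 0.023).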

How the results depend on the processing

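No paired analysis was possible because the labels carry storage numbers and no replicate numbers, so that nothing in them pairs a pBTSC library with a liver library. The counts of genes higher (1963) and lower (1363) in pBTSCs stayed within 1.5 times of these values under every alternative run except that 1238 were higher with S15 and S20 alone and 1298 without S22. Leaving out 1 library at a time gave 1298 to 2857 higher, the most without S17, and 1151 to 1434 lower genes. Against CD31+ cells (2236) the count was 3804 with array weights and 1018 to 2472 with 1 library left out. Against CD146+ cells (3462) it was 1554 without the shallow libraries, 1683 with array weights, and 1152 to 4587 with 1 library left out, lowest without S22 and highest without S17. Between CD31+ and CD146+ cells (0) it was 1 without the filter on low values and 0 to 1466 with 1 library left out. The cause was not tested. With the storage-number set as a block, chosen after seeing the data, it was 0, and without S22 as well it was 1, KLHDC9 (log2 difference 1.72), with S17 alone for CD146+ cells. Between these and the other liver libraries S16 to S23 it was 0 under each alternative run, both blocked fits included, and the 4 sort antigen genes kept their side of the threshold. None of the 147 genes named went from a call in one direction to a call in the other in any of 6 alternative fits. Small fold changes that were not called can change sign, since equal totals moved the median of all genes by 0.29. Of the values of the 147 genes in these fits, 45 fell short of the call, 19 newly passed it and the rest did neither. With S15 and S20 alone the fall of ADH4, among others given in the report, was not called (-6.32). The 2 shallow libraries of the comparison limit what can be said of genes under 37.7 normalized counts in S15 and 156 in S22.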

Other observations

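Genes of axial and regional identity, chosen after their values were seen and given no test as a family, differed between the preparations. HOX genes, which lay down position along the body axis, had 22 members among the genes tested, of which 12 were called higher in pBTSCs, and 12 also without the shallow libraries. HOXB7 was at 275, 211, 228, 264 and 271 normalized counts in pBTSCs and at 6.99 and 6.10 in CD31+ cells and 10.7 and 0 in CD146+ cells (log2 fold change 5.62, standard error 0.64, adjusted p = 3.5e-06). HOXD8 was at 498, 500.4, 499.8, 628 and 606 against 39.2, 38.1, 48.1 and 52.2 (log2 fold change 3.60, standard error 0.30, adjusted p = 1.3e-07), with little spread in either group. HOXD3 was at 120.3, 109.7, 128, 102 and 126 against 7.93, 3.09, 6.76 and 0 (log2 fold change 4.84, standard error 0.61, adjusted p = 1e-05). S22 lists HOXB7 and HOXD3 at 0, where 3 of its reads are worth 156, and without the shallow libraries their fold changes were 4.71 and 4.15. HOXA2 to HOXA5, HOXB2 to HOXB5 and HOXD1 were not called, among them HOXA5 at 238, 511, 507, 414 and 224 against 249, 289, 291 and 313 (log2 fold change 0.32, standard error 0.38, adjusted p = 0.56). In the shallow S22, 13 of the 22 genes were listed at 0.

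Other developmental factors differed too. FOXF2 was at 404, 37.7, 289.8, 527 and 816 in pBTSCs and at 5.37, 2.29, 4.67 and 0 in the liver sorts (log2 fold change 6.44, standard error 0.79, adjusted p = 7.6e-06), with S7 far below the other pBTSC libraries. NKX2-3, which also shapes vessels of gut and spleen, was at 1282, 608, 780.1, 904 and 651 against 63.4, 40.4, 68.1 and 52.2 (log2 fold change 3.87, standard error 0.76, adjusted p = 0.00083), and GATA5, an endoderm and heart factor, at 57.3, 42.1, 36.4, 113 and 89.7 against 1.61, 3.81, 3.34 and 0 (log2 fold change 4.53, standard error 0.62, adjusted p = 2.5e-05). Without the shallow libraries the fold changes of FOXF2 and GATA5 were 5.60 and 3.79. HHIP, the membrane protein that binds Hedgehog ligands, was lower in pBTSCs, at 543, 339, 878, 803 and 657 against 9779 and 8646 in CD31+ cells and 8018 and 7762 in CD146+ cells (log2 fold change -3.80, standard error 0.36, adjusted p = 4.7e-07).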
